A study of Drosophila melanogaster with 8 samples.

Results

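The Enhancer of split and Bearded family genes were followed in cells that lack asense. The set comprised every gene whose probe carries a symbol beginning with E(spl)m, or the symbol Brd, BobA, Bob, Tom or Ocho, in the platform annotation, and 12 of 11907 named genes met it. Of these, 5 encode HLH repressors (E(spl)mdelta-HLH, E(spl)mbeta-HLH, E(spl)m3-HLH, E(spl)m5-HLH and E(spl)m7-HLH) and 7 are Bearded-type genes (E(spl)malpha-BFM, E(spl)m2-BFM, E(spl)m4-BFM, E(spl)m6-BFM, Tom, Brd and Ocho). Each was represented by a single probe. E(spl)mgamma-HLH, E(spl)m8-HLH and BobA had no probe in the annotation used here and were not analysed.

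Both families are classical targets of Notch signalling. When Notch is activated, its intracellular part joins the DNA-binding protein Su(H) and switches on the E(spl) genes, and proneural basic helix-loop-helix (bHLH) activators drive many of the same genes. The HLH members are bHLH-Orange repressors that recruit the corepressor Groucho and hold down proneural genes, whereas the Bearded-type members are small proteins, several of which bind the ubiquitin ligase Neuralized and limit its action on the ligand Delta. In the fly nervous system this circuit decides which cells of a proneural cluster become neural precursors and separates the fates of sibling cells.

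Cells of the embryonic ventral nerve cord of Drosophila melanogaster, a population of neuroblasts and ganglion mother cells taken at stage 11 from embryos kept at 25 °C, were lysed in lots of 50 to 100, and their cDNA was amplified by PCR. Mutant cells were ase1/ase1, and the samples called wild type were ase1/FM7-KrGFP, so the ase1 allele was present on both sides of every comparison and the control was heterozygous over a balancer chromosome that carries a KrGFP marker. Mutant and control were hybridised together on 8 two-colour arrays that form 5 pairs, numbered 1, 3, 4, 5 and 6, with the mutant in Cy5 on 3 arrays (pairs 1 and 3) and in Cy3 on 5 (pairs 4, 5 and 6). For pairs 1, 4 and 5 an array a and an array b share their source names and were averaged to 1 replicate. Nothing in the labels ties the pairs to separate embryos, and the p-values then reflect only the spread between pairs, which may be technical.

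Values are log ratios, read as log2, and neither their log base nor their normalization is stated, so folds would be larger if the scale were a natural log. An exact 0, found for 36.3% to 43.7% of the values on an array, was read as not measured. The median over the whole column was 0 on all 8 arrays, and the median of the measured values lay between -0.18 and -0.02. Asense (ase), the bHLH gene mutated here, lay between -6.50 and -4.81 on the 8 arrays, in both dye orientations, so the ratios likely run as mutant over control, and signs are given on that basis. Of the neuroblast markers dpn, wor, mira, insc, klu and CycE each was measured in all 5 pairs, but a ratio does not give a level. In bulk samples such as these, fewer cells of a type and less RNA per cell cannot be told apart.

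Repeat arrays of a pair were not closer to each other than arrays of different pairs. Across measured probes, which are not independent replicates, arrays a and b of a pair correlated at 0.28 to 0.41 and arrays of different pairs at 0.28 to 0.61. Each of the 8 arrays correlated best with an array of another pair. Whether the pair numbers of the repeat arrays are right was not tested, and the pair averages and n = 5 rest on them. Values are therefore given array by array below, and the counts are also given with array a only and with array b in place of array a where there is one.

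Of the 12 members 4 rose in the mutant and 0 fell, in a test of the mean log ratio over 5 pairs against 0 (limma, Benjamini-Hochberg adjusted over 8295 features, called at an adjusted p below 0.05). Over all features tested, 6.97% were called higher, 11.3% lower and 18.3% in either direction. Those that rose were E(spl)m7-HLH among the repressors and, of the Bearded type, E(spl)malpha-BFM, E(spl)m2-BFM and E(spl)m4-BFM. All 12 members were measured in 4 or 5 pairs and entered the test. At an unadjusted p below 0.05, 9 of 12 were higher, as were 14.1% of all features, and 4 of 12 were above 0 in every measured pair, as were 13.1%. The median over the 12 members was 0.65, against -0.07 over all features tested, and 11 of 12 means lay above 0, as did 42.6% of all means. With array a only, 1 member was called (E(spl)m2-BFM). With array b where there is one, a setting chosen after the data were seen, the 4 calls were those of the pair averages.

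**Figure D1:**
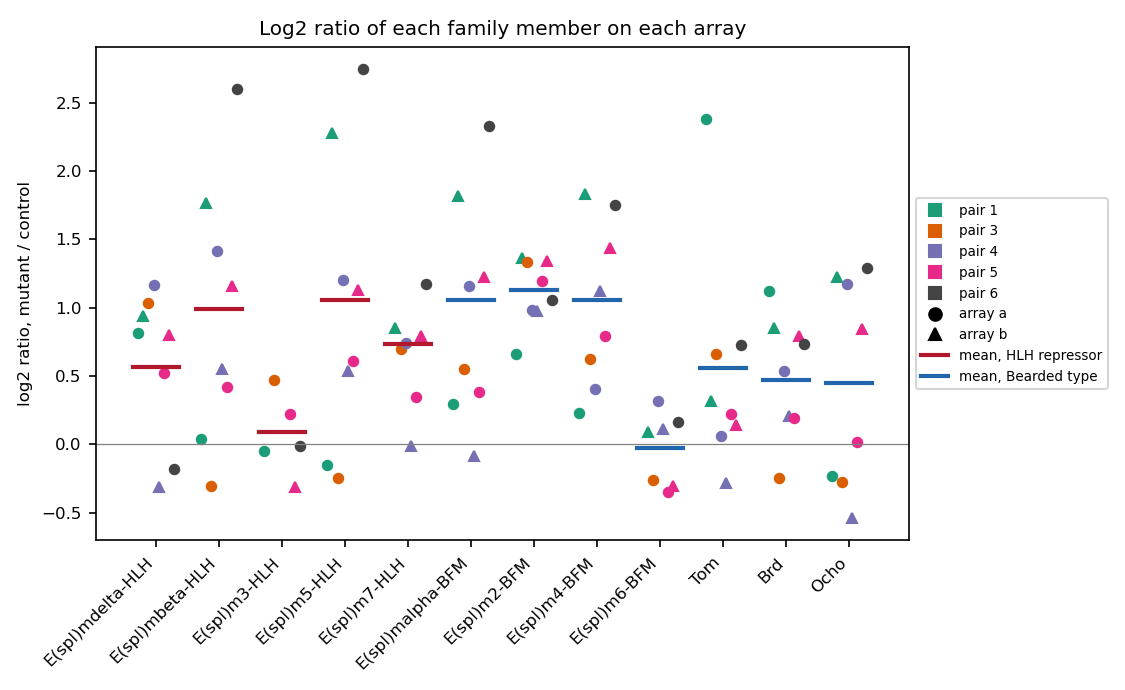
Log2 ratio of mutant over control (vertical axis) for each of the 12 family members (horizontal axis) on each of the 8 arrays; colours mark pairs, circles array a, triangles array b, and bars the mean over pairs, red for HLH repressors and blue for Bearded-type members. All 8 points of E(spl)m2-BFM lie between 0.66 and 1.36, whereas those of E(spl)m5-HLH run from -0.25 to 2.74.

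Among the HLH repressors, E(spl)m7-HLH was measured on 7 arrays, at 0.85 on array 1b, 0.70 on 3a, 0.74 on 4a, -0.01 on 4b, 0.35 on 5a, 0.79 on 5b and 1.17 on 6a. Array 4b was the one measured array below 0, and all 5 pair values, from 0.37 to 1.17, were above it. The gene rose by a log2 ratio of 0.73 ± 0.30 (SD, n = 5 pairs, limma adjusted p = 0.0150), a fold of 1.66. The call held in each fit that left out 1 pair, close to the threshold without pair 1 (limma adjusted p = 0.0486) and pair 5 (0.0479). It was lost with array a only (mean 0.74, adjusted p = 0.0736) and with exact zeros kept as values (0.0952). The pair 1 value of E(spl)m7-HLH came from array 1b alone, so pair 1 had no value in the fit with array a only. The gene was not tested among features measured on all 8 arrays.

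E(spl)m5-HLH and E(spl)mbeta-HLH had means close to 1 and the widest spread of the 12 members. The log2 ratio of E(spl)m5-HLH was -0.15 on array 1a, 2.28 on 1b, -0.25 on 3a, 1.20 on 4a, 0.54 on 4b, 0.61 on 5a, 1.13 on 5b and 2.74 on 6a. Arrays 1b and 6a were high and arrays 1a and 3a lay below 0, so the 5 pair values fell on both sides of 0. Its mean was 1.06 ± 1.07 (SD, n = 5 pairs, limma adjusted p = 0.0767), and 97.3% of features had a smaller SD.

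The ratio of E(spl)mbeta-HLH was 0.04 on array 1a, 1.77 on 1b, -0.31 on 3a, 1.41 on 4a, 0.55 on 4b, 0.42 on 5a, 1.15 on 5b and 2.60 on 6a. Its high arrays were again 1b and 6a, and its low arrays 1a and 3a. The mean was 0.99 ± 1.04 (SD, n = 5 pairs, limma adjusted p = 0.0834). Both genes were called without pair 3 (adjusted p = 0.0402 for each), and their means were 0.64 and 0.59 without pair 6, not past the test.

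E(spl)mdelta-HLH, the first gene of the complex, ran in another order. It was at 0.82 on array 1a, 0.94 on 1b, 1.03 on 3a, 1.16 on 4a, -0.31 on 4b, 0.52 on 5a, 0.80 on 5b and -0.18 on 6a. Array 6a, where E(spl)m5-HLH and E(spl)mbeta-HLH peaked, was one of its 2 arrays below 0. The mean was 0.56 ± 0.47 (SD, n = 5 pairs, limma adjusted p = 0.0711). It was called when the measured values of every array were centred (adjusted p = 0.0496), with a dye term (0.0481) and without pair 6 (0.0201).

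E(spl)m3-HLH was measured on 5 arrays and in 4 pairs, with -0.05 on array 1a, 0.47 on 3a, 0.22 on 5a, -0.32 on 5b and -0.01 on 6a. Positive and negative values were mixed, and the mean of 0.09 ± 0.25 (SD, n = 4 pairs, limma adjusted p = 0.711) did not pass the test. Without pair 3 its mean was -0.037.

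Of the Bearded-type genes, E(spl)m2-BFM had the smallest SD of the 12 members. Its log2 ratio was 0.66 on array 1a, 1.36 on 1b, 1.33 on 3a, 0.98 on 4a, 0.97 on 4b, 1.20 on 5a, 1.34 on 5b and 1.06 on 6a. All 8 arrays were above 0, and arrays a and b of pair 4 differed by 0.01. The gene rose by 1.13 ± 0.16 (SD, n = 5 pairs, limma adjusted p = 0.00165), a fold of 2.19, and 9.13% of features had a smaller SD. It was the one member called in all 17 other settings.

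E(spl)m4-BFM, whose protein binds Neuralized, was at 0.23 on array 1a, 1.83 on 1b, 0.62 on 3a, 0.40 on 4a, 1.12 on 4b, 0.79 on 5a, 1.44 on 5b and 1.75 on 6a. It too was above 0 on all 8 arrays, with the lowest and the highest value both in pair 1. It rose by 1.06 ± 0.44 (SD, n = 5 pairs, limma adjusted p = 0.00864). The call held without any 1 of the pairs and was lost with array a only (0.76, adjusted p = 0.0980) and with exact zeros kept (0.0694). Keeping zeros raised the features tested from 8295 to 13819. E(spl)m4-BFM had no zeros of its own, and its mean stayed at 1.06.

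E(spl)malpha-BFM was at 0.29 on array 1a, 1.82 on 1b, 0.55 on 3a, 1.16 on 4a, -0.09 on 4b, 0.38 on 5a, 1.22 on 5b and 2.33 on 6a. One array, 4b, was below 0, and all 5 pairs were above it. The gene rose by 1.05 ± 0.74 (SD, n = 5 pairs, limma adjusted p = 0.0302). Its call was lost without pair 1 (adjusted p = 0.0711), pair 4 (0.0547) or pair 5 (0.0706), with a dye term (0.0585), with array a only (0.113) and with exact zeros kept (0.172). In the last setting its mean stayed at 1.05, since it was measured on all 8 arrays, and only the set of features tested beside it grew.

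E(spl)m6-BFM stood apart from these. It was measured on 7 arrays and lay between -0.35 and 0.31, with 4 values above 0 and 3 below. Its mean was -0.02 ± 0.25 (SD, n = 5 pairs, limma adjusted p = 0.915), and the sign of the mean turned when the arrays were centred on their measured values (0.061).

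The 3 Bearded-type genes of the Bearded complex had smaller means, and 0 of 3 passed the test in limma, with 2 of 3 at an unadjusted p below 0.05. Bearded (Brd), which gives the family its name, was at 1.12 on array 1a, 0.85 on 1b, -0.25 on 3a, 0.54 on 4a, 0.21 on 4b, 0.19 on 5a, 0.79 on 5b and 0.74 on 6a. Array 3a, the single array of pair 3, was the only one below 0. The mean of Brd was 0.47 ± 0.46 (SD, n = 5 pairs, limma adjusted p = 0.110), with an adjusted p of 0.0423 without pair 3.

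Tom, another small inhibitor of Neuralized, was at 2.38 on array 1a, 0.32 on 1b, 0.66 on 3a, 0.06 on 4a, -0.28 on 4b, 0.22 on 5a, 0.14 on 5b and 0.73 on 6a. Array 1a was far above the others, the opposite of what E(spl)m5-HLH and E(spl)malpha-BFM showed in that pair. The mean of Tom was 0.56 ± 0.56 (SD, n = 5 pairs, limma adjusted p = 0.0963). Ocho was at -0.23 on array 1a, 1.22 on 1b, -0.28 on 3a, 1.17 on 4a, -0.54 on 4b, 0.02 on 5a, 0.85 on 5b and 1.29 on 6a. Its values were high on arrays 1b, 4a and 6a and below 0 on 1a, 3a and 4b, and its mean was 0.45 ± 0.56 (SD, n = 5 pairs, limma adjusted p = 0.159). In the 17 other settings Tom and Ocho were never called.

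**Figure D2:**
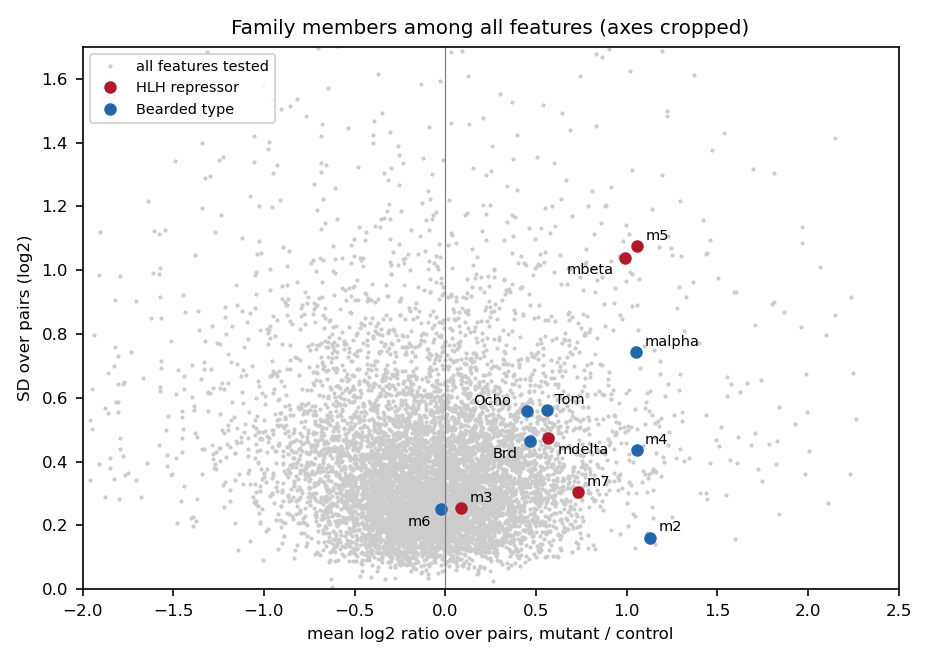
Mean log2 ratio over pairs (horizontal axis) against its SD over pairs (vertical axis) for all features tested (grey) and the 12 family members (red, HLH repressors; blue, Bearded type), with both axes cropped. E(spl)m2-BFM (1.13, SD 0.16) and E(spl)m5-HLH (1.06, SD 1.07) have similar means at opposite ends of the spread.

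The values of the HLH repressors and of the Bearded-type members overlapped. Of 5 HLH genes 1 rose, and of 7 Bearded-type genes 3 rose, beside 6.97% of all features tested. The class median was 0.73 for the HLH genes and 0.56 for the Bearded-type genes, against -0.07 over all features tested. By pair, the HLH median was 0.88 in pair 1, 0.47 in pair 3, 0.65 in pair 4, 0.66 in pair 5 and 1.17 in pair 6. The pair 4 value, and so the difference given below for pair 4, rests on 4 HLH genes, since E(spl)m3-HLH was not measured there. The Bearded-type median was 1.01, 0.55, 0.37, 0.49 and 1.06 in the same order. The HLH median minus the Bearded-type median thus was -0.13, -0.08, 0.27, 0.17 and 0.12, with a mean of 0.07 ± 0.17 (SD, n = 5 pairs). That difference was smaller than its spread between pairs and above 0 in 3 of 5 pairs. On single arrays the difference of class medians ran from -0.48 (array 1a) to 0.64 (array 4a) and was above 0 on 5 of 8. Each class held a member near 0 (E(spl)m3-HLH and E(spl)m6-BFM) beside members near 1.

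**Figure D3:**
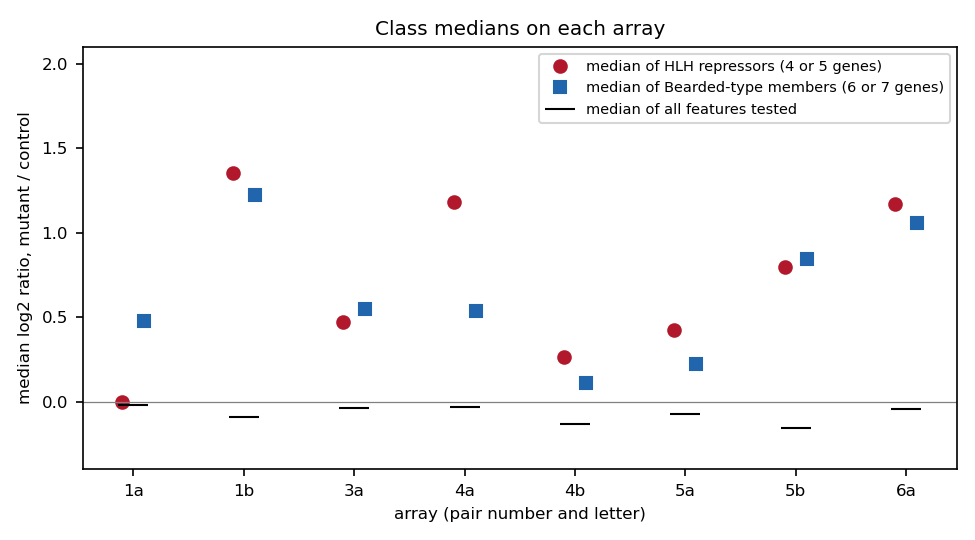
Median log2 ratio of mutant over control (vertical axis) on each array (horizontal axis) for HLH repressors (red circles), Bearded-type members (blue squares) and all features tested (black bars). On 7 of 8 arrays both class medians lie above 0, and on array 1a the HLH median is -0.0051 beside a Bearded-type median of 0.48.

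Within the Bearded type, the 4 genes in the Enhancer of split complex on 3R had a median of 1.05 with 3 called, and the 3 genes in the Bearded complex on 3L had a median of 0.47 with 0 called. Over all features tested 6.97% were called higher. The difference between the complexes was not tested. In pair 3 the median was 0.59 in the first and -0.25 in the second, and in pair 1 it was 1.02 and 0.99.

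Along 3R, by the gene order of the Release 6 plus ISO1 MT assembly, used for names and neighbours only, the complex holds 13 protein-coding genes from E(spl)mdelta-HLH to gro, of which 11 had a probe. Both members with means near 0 lay between members with larger means: E(spl)m3-HLH (0.09) lies between E(spl)m2-BFM (1.13) and E(spl)m4-BFM (1.06), and E(spl)m6-BFM (-0.02) lies between E(spl)m5-HLH (1.06) and E(spl)m7-HLH (0.73). The other measured genes of the complex did not pass the test. Kaz-m1, a Kazal-domain gene next to E(spl)m2-BFM, had a mean of -0.52 ± 1.08 (SD, n = 5 pairs, limma adjusted p = 0.330), with 2.59 on array 1a and -4.41 on array 1b of the same pair. Groucho (gro), the corepressor of the HLH proteins, had a mean of -0.27 ± 0.51 (SD, n = 5 pairs, limma adjusted p = 0.356).

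**Figure D4:**
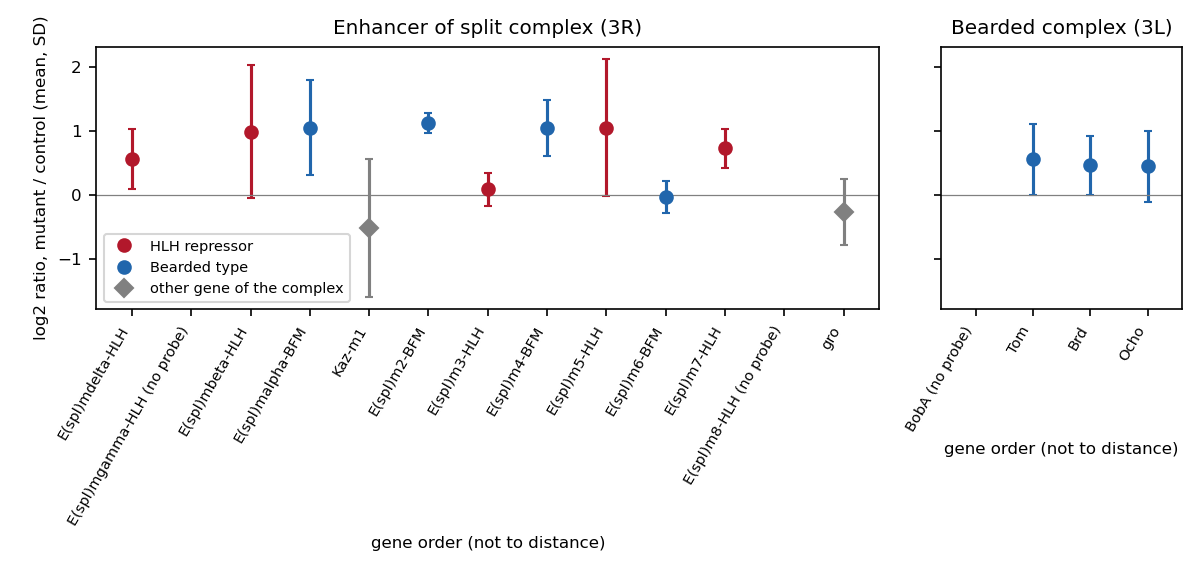
Mean log2 ratio of mutant over control with SD over pairs (vertical axis) for the genes of both complexes in chromosomal order, not to distance (horizontal axis); red, HLH repressors; blue, Bearded type; grey diamonds, other genes of the complex. E(spl)m3-HLH and E(spl)m6-BFM lie near 0 between neighbours at 0.73 to 1.13.

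Members differed in how they ran over the arrays. For 6 of 12 members (E(spl)mbeta-HLH, E(spl)malpha-BFM, E(spl)m4-BFM, E(spl)m5-HLH, E(spl)m7-HLH and Ocho) the 2 highest of the arrays that measured them were 1b and 6a. Of the 9 members measured on all 8 arrays 5 had this order (all of these but E(spl)m7-HLH), against 5.88% of the 6734 features measured on all 8. This grouping was chosen after the values were seen. It held 3 HLH and 3 Bearded-type members, and E(spl)m2-BFM, E(spl)m3-HLH, E(spl)m6-BFM, E(spl)mdelta-HLH, Tom and Brd did not share it.

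Arrays a and b of pair 1 were far apart for several members. E(spl)m5-HLH was 2.43 higher on array b than on array a, E(spl)mbeta-HLH 1.73, E(spl)m4-BFM 1.60, E(spl)malpha-BFM 1.53 and Ocho 1.45, while Tom dropped by 2.07. The median size of this gap was 1.53 over the 9 members measured on both arrays and 0.45 over all features tested. In pair 4 the median sizes were 0.72 and 0.57, and in pair 5 they were 0.53 and 0.44. For E(spl)m2-BFM the gaps were 0.70, -0.01 and 0.15 in pairs 1, 4 and 5.

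Dye orientation passed the test for 0 of 12 members in limma, with 0 at an unadjusted p below 0.05. The dye term sets pairs 1 and 3 against pairs 4, 5 and 6, so dye cannot be told apart from other differences between these pairs. With so few pairs it can miss large gaps. Over all features tested limma called the dye term for 0, and 4.03% of them had an unadjusted p below 0.05. For the members that p ran from 0.0811 (Tom) to 0.827 (E(spl)m7-HLH). E(spl)m2-BFM had a mean of 1.17 over the pairs with the mutant in Cy5 and 1.10 over those with the mutant in Cy3. E(spl)m7-HLH had 0.77 and 0.70. The gap was wider for E(spl)mbeta-HLH (0.30 and 1.46), E(spl)m5-HLH (0.41 and 1.49) and E(spl)mdelta-HLH (0.96 and 0.30), and for Tom the Cy5 mean minus the Cy3 mean was 0.74.

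**Figure D5:**
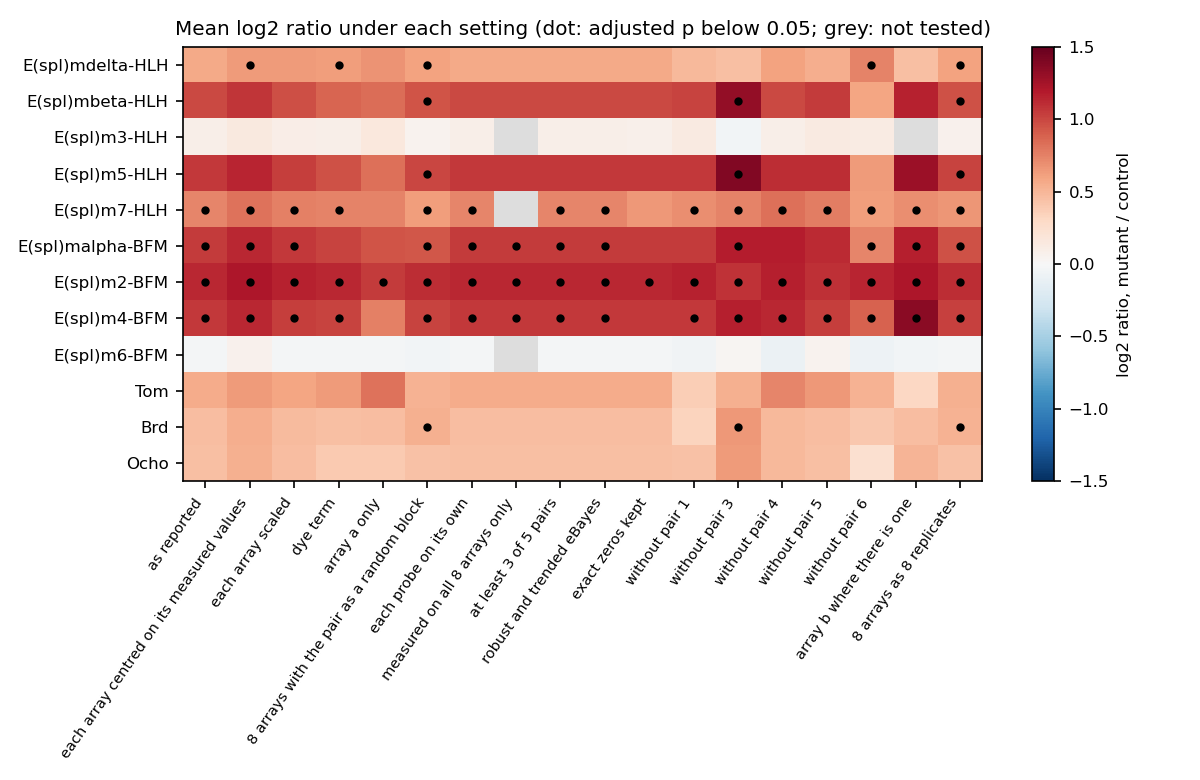
Mean log2 ratio (colour) of each family member (rows) as reported and under each other setting (columns); dots mark an adjusted p below 0.05 and grey cells were not tested. The row of E(spl)m2-BFM carries a dot in every column, and those of E(spl)m3-HLH, E(spl)m6-BFM, Tom and Ocho carry none.

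Other genes of the Notch pathway moved in both directions. Of 25 listed core genes 16 were tested, 3 rose, 3 fell and 10 did not pass, with a median of -0.17. Over all features tested 6.97% rose and 11.3% fell. The corepressor gene CtBP, whose protein works with short repression motifs, rose by 0.94 ± 0.52 (SD, n = 5 pairs, limma adjusted p = 0.0182). Sanpodo (spdo, 0.85), a Notch regulator in asymmetrically dividing cells, and the O-fucosyltransferase gene O-fut1 (0.82), which modifies Notch, also rose. The ubiquitin ligase genes Su(dx) (-0.72) and neur (-0.55) and the coactivator gene mastermind (mam, -0.62) fell. Neuralized is the ligase that several Bearded-type proteins inhibit. The means of 6 of 7 Bearded-type genes lay above 0, as did 42.6% of all means, and 3 of 7 were called higher. A link between the change of neur and those of the Bearded-type genes was not tested. Calls of this list were sensitive to the pairs, with 0 to 2 higher and 0 to 2 lower when 1 pair was left out. The genes neur and O-fut1 lost their calls whichever pair was left out, spdo and mam in 4 of these 5 fits, Su(dx) in 3 and CtBP in 2. Su(dx) was measured on 5 of the 8 arrays. With each probe tested on its own, the first mam probe was at -0.37 and not called (limma adjusted p = 0.0558). N, Dl, Ser and Su(H) were not analysed here.

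Among 8 tested proneural genes and partners 3 fell and 0 rose, beside 11.3% and 6.97% of all features tested. The 3 that fell were asense itself (-6.06), the zinc finger gene senseless (sens, -2.42) and the neurogenin-type gene tap (-1.88). The proneural genes of the achaete-scute complex that can activate E(spl) and Bearded genes did not pass, with ac at 0.72 (limma adjusted p = 0.0956), sc at -0.21 (0.402) and l(1)sc at 0.08 (0.795). Their partner daughterless (da) had 0.39 (0.0602) and their inhibitor extramacrochaetae (emc) -0.52 (0.138). Of the bHLH-Orange relatives outside the complex 2 of 5 were tested in limma and 0 were called, with 1 at an unadjusted p below 0.05. Deadpan (dpn), a neuroblast factor, had a mean of -0.44 ± 0.33 (SD, n = 5 pairs, limma adjusted p = 0.0791). Hey, another Notch target, had -1.23 ± 1.72 (adjusted p = 0.151), from -3.26 in pair 5 to 0.62 in pair 3.

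Markers of other cells moved too, where over all features tested 6.97% rose and 11.3% fell. Since E(spl) genes are also transcribed in the neuroectoderm, its markers are given beside them: of 3 tested, crb (0.52) and pyd (0.72) rose and SoxN (0.41) did not pass, and their median was between 0.24 and 0.98 on the 8 arrays. It was 0.70 on array 1a, 0.70 on 1b, 0.52 on 3a and 0.40 on 4a. On the other arrays it was 0.24 (4b), 0.98 (5a), 0.53 (5b) and 0.49 (6a). Glial (gcm and repo), mesodermal (lmd and slou), hemocyte (Hml and crq) and neuronal (elav and Appl) markers fell, 2 in each list, of 3, 3, 3 and 2 tested. Hml (limma adjusted p = 0.0493), elav (0.0449) and Appl (0.0452) lay close to the threshold, and repo was measured in 4 pairs. The markers vn and shg (neuroectoderm), cato and cpo (sensory precursor), pnt, Mef2, tin, Pxn and nSyb were not tested. These lists were not recomputed with a pair left out. Of 4 ganglion mother cell markers 1 fell (pros), and of 4 listed sensory precursor markers 2 were tested and 1 fell (sens). Of the 6 neuroblast markers other than ase 2 fell, namely mira and klu. The part of these marker changes in the family's values was not tested.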

How the data were processed

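The deposited table holds log2-type ratios of the 2 channels for 14569 probes on 8 arrays, and how the authors scanned, corrected and normalized the arrays is not given in the sources used here. Per the labels, cDNA was labelled with Cy3 or Cy5 by Klenow extension. The largest size, 7.43, exceeds the 4.82 that log10 of a 16-bit scan allows, so base 10 was set aside. Probes were named through the platform annotation, updated by gene identifier (12011 probes) or accession (107) to the Release 6 plus ISO1 MT gene table. Exact zeros were taken as not measured, probes of a gene and arrays a and b of a pair were averaged, and features with a value in at least 4 of 5 pairs were tested in limma 3.58.1 under R 4.3.3 (lmFit, then eBayes). Single-gene adjusted p-values come from limma. The procedure was run on simulated data with independent normal noise in each pair, which does not bear on whether the pairs here are separate replicates.

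The members and lists were chosen with earlier results of these data known. All members, asense and list members past the test are named, with up to 3 others of a list that had no call, and further list members were named after their values were seen. Cross-hybridisation between these related genes was not examined, since probe sequences were not used here. Promoter and protein features are not described, since no promoter or protein sequences were used here. The number of arrays limits the precision, and spot intensities were not used here.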

Additional observations from a re-analysis of the deposited data

Results flagged for a closer look

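In 2 of 25 sets of pair values examined, a single pair lay far from the others, where chance gives about 1 in 20. For E(spl)m3-HLH pair 3 was at 0.47 and the nearest of the other 3 measured pairs at -0.01. For Kaz-m1, the neighbour of E(spl)m2-BFM, pair 3 was at 1.39 and the nearest of the other 4 at -0.79. This holds for pair values only, since array 1a, at 2.59, lay above pair 3 and was averaged with array 1b, at -4.41.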

How the results depend on the processing

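The members were recomputed under 17 other settings, of which 2 (array b where there is one, and 8 arrays as 8 replicates) were chosen after the data were seen. Not all 12 were tested in each setting. Among features measured on all 8 arrays only, 9 members were tested, and with array b where there is one, 11. The HLH medians of these settings rest on 3 and 4 genes. The 4 higher calls became 1 with array a only and 1 with exact zeros kept, and 8 with the pair as a random block over 8 arrays or with 8 arrays as 8 replicates. Over all features the higher calls were 189 of 7828 and 141 of 13819 in the first settings. With the random block they were 841 of 8295, and with 8 replicates 656 of 8295. Members measured on all 8 arrays kept their means when zeros were kept, and only the features tested beside them changed. Leaving out 1 pair gave 3 to 7, with 7 without pair 3. Limma called no member lower in any setting. Both class medians moved by less than their SD over pairs in every setting. The sign turned for E(spl)m6-BFM when centred (0.061), without pair 3 (0.034) and without pair 5 (0.051), and for E(spl)m3-HLH without pair 3 (-0.037), none of them past the test. Leaving out 1 pair gave -0.084 to 0.051 for the first and -0.037 to 0.14 for the second. Higher and lower calls of the Notch list (3 and 3) became 0 and 0 with array a only or exact zeros kept, and higher calls 1 with a dye term. Leaving out 1 pair gave 0 to 2 higher and 0 to 2 lower. In the proneural list 1 was higher when centred and 1 with the random block, and 1 of the bHLH-Orange relatives was lower with array a only. Centring each array on its measured values changed the calls over all features from 578 higher and 939 lower to 805 and 707. Those 1517 calls became 474 with array a only, 345 with exact zeros kept and 936, 747 and 597 without pairs 1, 4 and 5. They became 2243 with the pair as a random block and 1732 with 8 arrays as 8 replicates. The cause of these changes was not tested. The test was made on ratios within pairs throughout. Signal over background is not known for these values.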
